A study of Arabidopsis thaliana with 18 samples.

Results

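The transcripts described here are those that were low in unopened wild-type buds and high in open wild-type flowers of Arabidopsis thaliana, and that carry no gene symbol beyond a locus identifier. A probe set, the group of short oligonucleotides that reads 1 transcript on an Affymetrix ATH1 array, was taken when it named 1 such locus, had a mean intensity of at least 400 on the 3 arrays of wild-type open flowers, and lay there at or above 6 times the mean of the 3 wild-type bud arrays plus 16. After a list of 9 loci was left out, 37 probe sets of 37 different loci met the rule, of 22746 probe sets apart from controls and of 11933 that name a locus identifier as their gene. Because wild-type arrays chose the members, all wild-type values below are a description, and the comparisons tested are between groups of the other 2 genotypes. The wild-type arrays do enter the estimate of the spread, which all 6 groups share.

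Flowers came from 3 genotypes, with 3 arrays in each of 6 groups and 18 arrays in all. The overexpressor (OE) is the line labelled 35S:AtLEJ1/5-8, in which the 35S promoter, active in most plant tissues, drives AtLEJ1. It is a single line. The mutant (KO) is labelled atlej1, and the third genotype is wild type (WT). Open flowers of floral stages 13 to 14 were set against unopened buds of stages 1 to 12, all from plants 5 weeks old grown in long days, with 5 µg of total RNA per sample. Each group is labelled as biological replicates. LEJ1 encodes a small protein with paired CBS domains, and its full name, loss of the timing of ethylene and jasmonate biosynthesis, refers to those 2 hormones. LEJ1 transcript levels were not analysed here, and the genotypes are given as labelled.

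An Arabidopsis flower opens when petals and stamen filaments elongate past the sepals and the anthers release their pollen. The tapetum, the anther cell layer that feeds developing pollen, has broken down by then, while nectaries begin to secrete sugar and floral terpenes are made. Buds and open flowers therefore hold different mixtures of tissues, and in such whole-organ samples fewer cells of a type and less RNA per cell cannot be told apart. The sources used here give no description of the 37 loci beyond their identifiers, so no function is given for them.

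Array medians ran from 202 to 232 and trimmed means from 499.82 to 499.85, so that the arrays shared 1 scale. Control transcripts probed at both ends give a log2 ratio of 3′ over 5′ signal, a sign of RNA integrity, which was 1.11 ± 0.108 in OE open flowers and 1.06 ± 0.165 in OE buds, 1.08 ± 0.0892 in KO open flowers and 1.02 ± 0.0754 in KO buds, and 1.13 ± 0.0875 in WT open flowers and 1.10 ± 0.0774 in WT buds (SD, n = 3 each). Intensities are linear and scaled by the authors. Log2 changes were computed on log2(intensity + 16), a scale on which changes of dim transcripts come out too small, and errors of log2 changes are standard errors of the limma fit.

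All 37 transcripts rose at opening in both genotypes that the rule did not use. In OE, 37 of 37 passed limma's adjusted p threshold of 0.05 as higher in open flowers, where 14.3% of the 15110 probe sets tested did so. In KO, 37 of 37 passed as higher, against 11.1% of all probe sets tested. The median change of the members was 2.84 log2 units in OE (range 1.32 to 5.14) and 2.86 in KO (range 1.91 to 5.24), beside medians of -0.08 and -0.03 over all probe sets in OE and KO. The highest adjusted p of any member was 0.0352 in OE and 0.00343 in KO. With the 12 OE and KO arrays alone in the limma fit, 37 of 37 passed in each, with adjusted p of at most 0.0176 in OE and 0.00181 in KO. Open-flower arrays lay above all bud arrays of their genotype for 37 members in OE and 37 in KO, against 19.6% and 16.3% of all probe sets. For each of the 37, the lowest of the 9 open-flower arrays was above the highest of the 9 bud arrays. These arrays include the WT ones that chose the members, so this is a description. The share of all probe sets separated in this way was not computed. For AT5G47350 the gap was small, with 77.7 units on an OE open-flower array against 77.1 on a KO bud array. The filter on low values removed no member, since the wild-type open arrays alone carried each of them past it.

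Changes of at least 2 log2 units were found for 35 members in OE and for 36 in KO, against 2.37% and 2.14% of all probe sets. Of the 25 largest rises over all probe sets, 6 in OE and 5 in KO were members. In WT, which chose the members, the changes ran from 2.61 to 5.37 with a median of 3.11, and 12.3% of all probe sets passed as higher there, from which nothing is read.

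**Figure D1:**
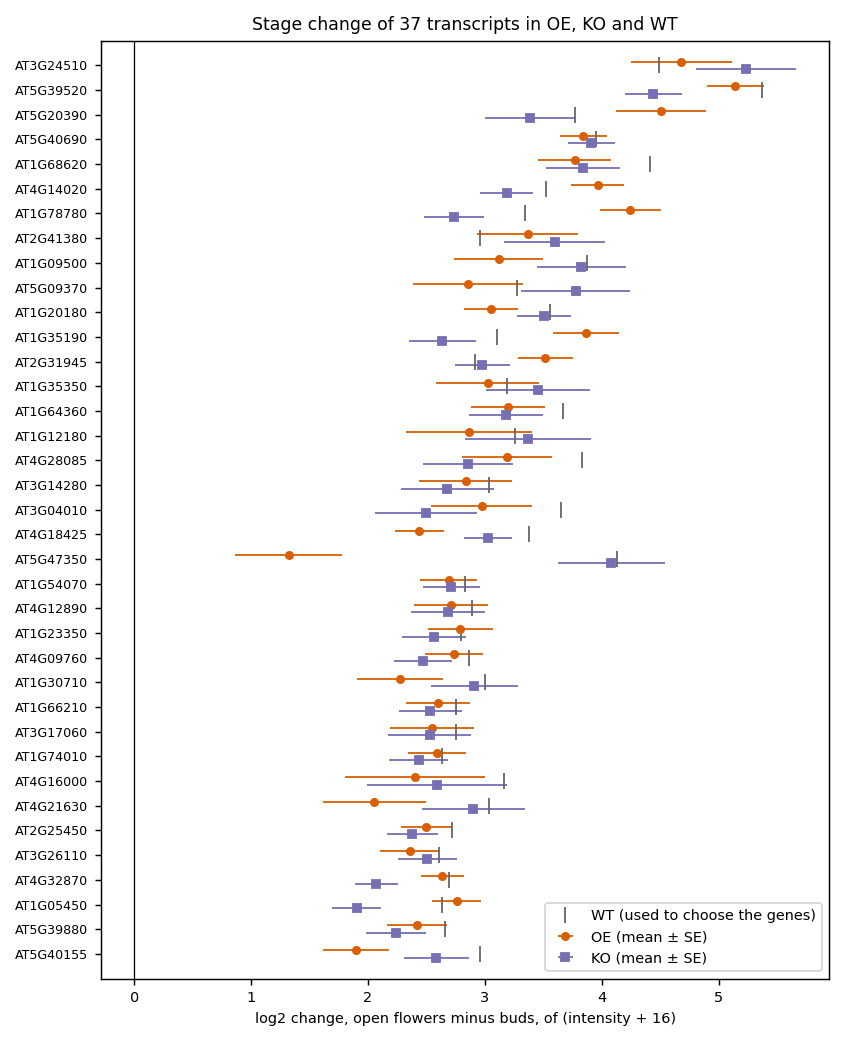
Log2 change of each of the 37 transcripts, open flowers minus buds, in OE (circles) and KO (squares), with standard errors, and in WT (vertical ticks, used to choose the transcripts and not tested), ordered by the mean of the OE and KO changes. Every OE and KO change lies above 0, and AT5G47350, at 1.32 in OE and 4.08 in KO, has the widest gap between both genotypes.

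The steepest changes belonged to AT3G24510 and AT5G39520, whose bud signal was near the bottom of the scale. AT3G24510 had 438, 1274 and 943 intensity units in OE open flowers, against 11.7, 44.2 and 3.88 in OE buds. In KO it had 785, 704 and 1056 units in open flowers, against 1.43, 20.4 and 2.20 in buds. All open-flower arrays stood more than an order of magnitude above the buds of the same replicate number. The change was 4.68 ± 0.43 log2 units in OE (adjusted p = 1.46e-07, limma) and 5.24 ± 0.43 in KO (adjusted p = 5.42e-08). Its size depended on the constant added before the logarithm and on the arrays used, with values of 3.42 to 5.49 in OE and 3.65 to 6.49 in KO over the alternatives run. WT had 476, 926 and 885 units in open flowers and 7.96, 29.7 and 17.4 in buds.

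AT5G39520 had 1537, 1887 and 2515 units in OE open flowers, against 25.9, 38.4 and 58.1 in OE buds. KO open flowers had 1874, 1229 and 1957 units, against 66.8, 48.0 and 69.4 in KO buds. No bud array of any genotype came above 69.4 units and no open-flower array was below 1229. The change was 5.14 ± 0.24 in OE (adjusted p = 1.45e-10, limma) and 4.44 ± 0.24 in KO (adjusted p = 1.10e-09). In WT the open flowers read 2583, 1712 and 1889 units and the buds 45.4, 25.5 and 31.6.

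AT5G20390 and AT5G40690 followed. AT5G20390 averaged 1892 ± 266 units in OE open flowers and 73.5 ± 38.1 in OE buds, a change of 4.51 ± 0.39, and 1273 ± 172 in KO open flowers and 126 ± 95.5 in KO buds, a change of 3.39 ± 0.39 (SD, n = 3 each). The KO bud mean rested on 1 array of 234 units beside 53.1 and 89.7. AT5G40690 varied little between replicates in KO open flowers and in OE buds, and more in KO buds. It gave 1941, 2074 and 2497 units in OE open flowers, against 139, 127 and 141 in OE buds, and 1976, 2144 and 2157 units in KO open flowers, against 81.5, 123 and 187 in KO buds. Its changes of 3.84 ± 0.20 in OE and 3.91 ± 0.20 in KO differed by -0.07 (adjusted p of the difference 0.961, limma).

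Further loci completed the 15 with the steepest mean change of OE and KO. These were AT1G68620, AT4G14020, AT1G78780, AT2G41380, AT1G09500, AT5G09370, AT1G20180, AT1G35190, AT2G31945, AT1G35350 and AT1G64360. AT1G68620 averaged 384 ± 64.1 units in OE open flowers and 13.9 ± 8.79 in OE buds, against 678 ± 36.1 in KO open flowers and 38.8 ± 31.0 in KO buds, with changes of 3.77 ± 0.32 in OE and 3.84 ± 0.32 in KO. The OE minus KO difference of AT1G68620 in open flowers was -0.81 (95% interval -1.47 to -0.14, adjusted p = 0.201). AT1G20180 had 690, 830 and 822 units in OE open flowers, against 63.7, 85.1 and 93.1 in OE buds, and 697, 929 and 688 in KO open flowers, against 48.9, 82.0 and 34.7 in KO buds. Neither genotype stood apart from the other at either stage for AT1G20180. AT2G31945 rose by 3.52 ± 0.24 in OE and 2.98 ± 0.24 in KO, to 841 ± 77.6 and 879 ± 68.1 units in open flowers.

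**Figure D2:**
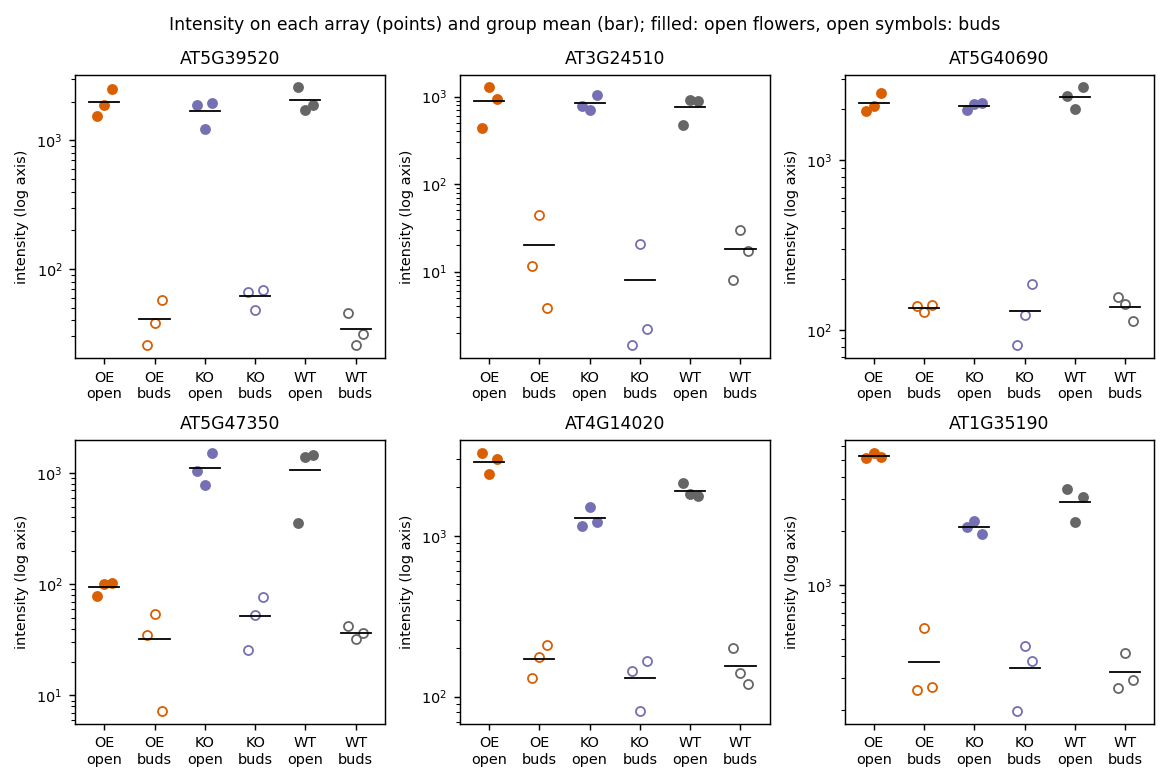
Intensity on every array (log axis) of 6 transcripts, with filled points for open flowers, open points for buds and a bar for each group mean, in OE, KO and WT. AT5G39520, AT3G24510 and AT5G40690 reach like levels in open flowers of all genotypes, AT5G47350 lies between 77.7 and 103 units in OE open flowers, and AT4G14020 and AT1G35190 are higher in OE than in KO open flowers.

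The shallowest mean changes were those of AT4G32870, AT3G26110, AT1G05450, AT5G39880 and AT5G40155. AT5G40155 averaged 462 ± 106 units in OE open flowers and 115 ± 41.0 in OE buds, and 680 ± 140 in KO open flowers and 101 ± 29.1 in KO buds. Its changes were 1.90 ± 0.28 in OE and 2.59 ± 0.28 in KO. AT4G32870 varied little between replicates, with 478, 493 and 488 units in OE open flowers, against 74.6, 64.1 and 56.4 in OE buds. In KO open flowers it had 365, 425 and 328 units, against 77.2, 80.1 and 70.8 in KO buds. The open-flower arrays of OE were all above those of KO, and the difference of 0.38 (95% interval -0.01 to 0.76) did not pass (adjusted p = 0.313). AT1G05450 rose by 2.76 ± 0.21 in OE and by 1.91 ± 0.21 in KO.

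AT5G39880 and AT3G26110 belong, with AT3G17060, AT2G25450 and AT4G18425, to the 5 members with the highest signal in WT open flowers, an order of signals that does not rank the amounts of different transcripts. All 5 were above the 40th percentile on bud arrays of each genotype too. AT5G39880 averaged 6567 ± 539 units in OE open flowers and 1258 ± 434 in OE buds, and 5394 ± 1131 in KO open flowers and 1125 ± 195 in KO buds. AT3G17060 averaged 3934 ± 488 in OE open flowers and 717 ± 357 in OE buds, and 3933 ± 1022 in KO open flowers and 689 ± 295 in KO buds. For AT2G25450 the changes were 2.50 ± 0.22 in OE and 2.38 ± 0.22 in KO, and for AT4G18425 they were 2.44 ± 0.21 and 3.03 ± 0.21. None of the 5 passed in the OE minus KO comparison of open flowers.

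Bud signal split the members. On every bud array of all 3 genotypes, 17 members lay at or below the 40th percentile of the array, which ran from 116 to 138 units, while 18 were above it on at least 1 bud array of each genotype. AT5G20390 and AT5G40155 fell between. The 17 included AT5G39520, AT3G24510, AT1G68620, AT1G09500, AT1G78780 and AT2G41380, and their changes ran from 1.32 to 5.14 in OE and from 2.07 to 5.24 in KO. For these the bud level, and with it the size of the change, is the less certain value, since the files used give no detection calls. Over the 18 the changes ran from 2.06 to 3.96 in OE and from 1.91 to 3.91 in KO. AT4G14020, AT1G64360 and AT5G40690 were among these 18 with changes past 3 in both genotypes.

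Near the threshold of the rule, the members with the smallest ratio of WT open flowers to WT buds plus 16 were AT5G39880 (6.02), AT1G74010 (6.03), AT3G26110 (6.03), AT1G05450 (6.04) and AT4G32870 (6.11). Just outside lay AT3G62710 (5.9957), AT4G39610 (5.79), AT1G57590 (5.74), AT3G25810 (5.68), which is the terpene synthase gene TPS24, and AT3G59845 (5.57). At the level limit, AT3G04010 (443 units), AT1G09500 (474) and AT1G12180 (481) lay just inside, and AT1G16950 (385), AT2G39400 (348) and AT2G20595 (347) just outside. The boundary thus falls within a continuous range of values. In all, 118 probe sets of any annotation passed both limits, and the 81 that are not members passed as higher in 73 of 81 cases in OE and 81 of 81 in KO.

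Open flowers of OE and KO were compared directly. Of the members, 2 were higher in OE, where 0.377% of all probe sets were, and 1 was lower, where 1.14% were. The median difference of the members was 0.03, beside -0.05 over all probe sets. An unadjusted p under 0.05 (limma) was found for 6 of 37 members and for 2517 of all 15110 probe sets, which are similar shares. The 95% interval held 0 for 31 members and lay wholly within 1 log2 unit of 0 for 17. Of the 81 other probe sets past the limits, 0 were higher and 20 lower in OE open flowers, with a median of -0.14, which is given as a description.

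AT5G47350 was the exception on the low side. It had 77.7, 99.9 and 103 units in OE open flowers, against 1042, 789 and 1526 in KO open flowers. WT open flowers had 359, 1409 and 1442 units. In buds it read 35.1, 53.7 and 7.28 units in OE, 25.9, 53.4 and 77.1 in KO and 41.8, 32.1 and 36.2 in WT. No OE open-flower array came within a factor of 3 of any open-flower array of the other genotypes, and all OE arrays of both stages lay at or below the 40th percentile of their array. The OE minus KO difference in open flowers was -3.33 ± 0.46 (95% interval -4.29 to -2.36, adjusted p = 0.000761, limma), and it passed under every alternative run, with an adjusted p of at most 0.00963. Over the alternatives the difference lay between -3.55 and -2.86.

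The stage change of AT5G47350 was 1.32 ± 0.46 in OE (adjusted p = 0.0352, limma) and 4.08 ± 0.46 in KO (adjusted p = 1.99e-06). The OE call was lost in 7 of 23 alternatives, among them those without each OE open-flower array in turn, without OE bud replicate 1 and without OE bud replicate 3, with an adjusted p of up to 0.187. The difference between both stage changes was -2.76 ± 0.65 and did not pass (adjusted p = 0.0938). With the replicate number as a block it passed (adjusted p = 0.0336), and over all alternatives the adjusted p ran from 0.0295 to 0.290.

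AT4G14020 and AT1G35190 were higher in OE open flowers. AT4G14020 had 3280, 2405 and 2985 units in OE open flowers, against 1153, 1501 and 1214 in KO open flowers, and 2121, 1817 and 1778 in WT open flowers. The 3 genotypes did not overlap at this stage, with WT between OE and KO. In buds it had 130, 175 and 209 units in OE, 145, 81.7 and 168 in KO and 202, 141 and 120 in WT, where the groups overlapped. The OE minus KO difference in open flowers was 1.15 ± 0.23 (95% interval 0.67 to 1.63, adjusted p = 0.0155, limma). It was lost without OE open replicate 1 (adjusted p = 0.0646), without OE open replicate 3 (0.0693) and without KO open replicate 3 (0.0770).

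AT1G35190 had 5087, 5467 and 5170 units in OE open flowers, against 2102, 2283 and 1932 in KO open flowers, and 3417, 2250 and 3085 in WT open flowers. Every OE array stood well above every KO array, and 1 WT array lay within the KO range. Bud levels were 260, 576 and 270 units in OE, 198, 455 and 376 in KO and 265, 419 and 294 in WT, again with overlap. The difference in open flowers was 1.31 ± 0.29 (95% interval 0.71 to 1.91, adjusted p = 0.0280, limma). It did not pass when any 1 of the 6 OE and KO open-flower arrays was left out, with adjusted p between 0.0524 and 0.126, and with the replicate block the adjusted p was 0.00580. Stage changes of AT4G14020 and AT1G35190 were larger in OE by 0.78 and 1.23, and neither difference passed (adjusted p = 0.453 and 0.328).

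AT1G78780 came next. It had 1078, 1083 and 952 units in OE open flowers, against 593, 547 and 515 in KO open flowers, a difference of 0.89 ± 0.26 that did not pass (adjusted p = 0.0921, limma) and passed with the replicate block (adjusted p = 0.0478). In buds it averaged 42.0 ± 20.5 in OE and 71.5 ± 23.8 in KO, so the stage change was 4.25 ± 0.26 in OE and 2.73 ± 0.26 in KO. Their difference was 1.51 (adjusted p = 0.108). WT open flowers had 951, 595 and 521 units, with 1 array near the OE level and the others at the KO level.

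**Figure D3:**
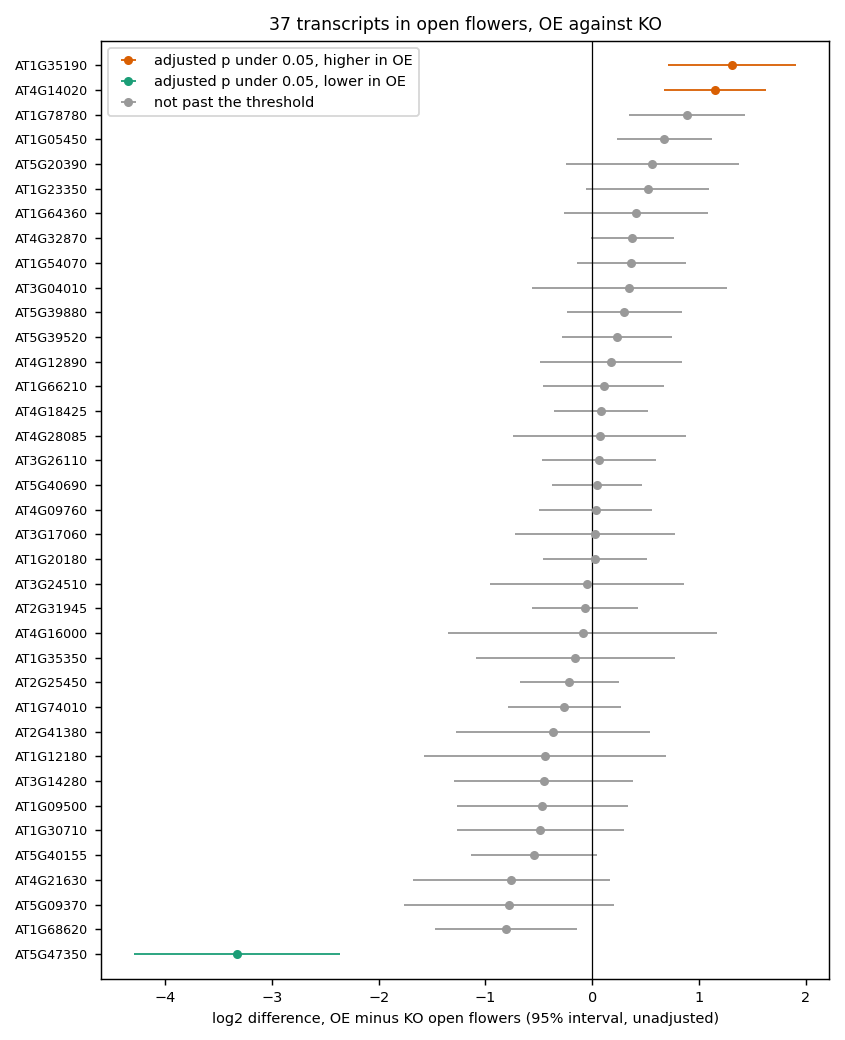
Log2 difference of each of the 37 transcripts between OE and KO open flowers, with unadjusted 95% intervals, coloured where the adjusted p was under 0.05. AT1G35190 (1.31) and AT4G14020 (1.15) pass as higher in OE, AT5G47350 (-3.33) passes as lower, and the intervals of 31 transcripts hold 0.

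In buds, no member passed between OE and KO, where 0.205% of all probe sets did. Differences ran from -0.74 to 0.67, and the lowest adjusted p in this limma fit was 0.631. An unadjusted p under 0.05 was found for 4 of 37 members, beside 596 of all 15110 probe sets. The difference between the OE and KO stage changes was passed by no member, against 0.265% of all probe sets, with values from -2.76 to 1.51. Here 6 of 37 members had an unadjusted p under 0.05 (limma), beside 1466 of all 15110 probe sets. The OE change was the larger for 20 members and the smaller for 17. Across the 37 members the OE and KO changes had a Pearson correlation of 0.512 and a Spearman correlation of 0.519. Without AT5G47350 these were 0.668 and 0.631. The points are genes that share the same 12 arrays and were chosen by their WT change, so the correlation is a description.

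The spread between replicates was wide for some members. The median coefficient of variation over open-flower arrays was 14.1% in OE (range 1.65 to 47.6%), 22.0% in KO (4.10 to 55.1%) and 19.1% in WT (2.59 to 58.0%). In buds it was 38.1% in OE, 38.4% in KO and 33.5% in WT. In WT open flowers 5 members varied by 40% or more, and for these the values that chose them are the least certain. AT3G04010 had 453, 453 and 364 units in OE open flowers, 582, 297 and 201 in KO open flowers and 739, 298 and 291 in WT open flowers. AT3G14280 had 353, 333 and 673 units in OE, 844, 412 and 605 in KO and 1177, 659 and 354 in WT open flowers. In both, replicate 1 was the highest array of KO and of WT, and this was not seen in OE.

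**Figure D4:**
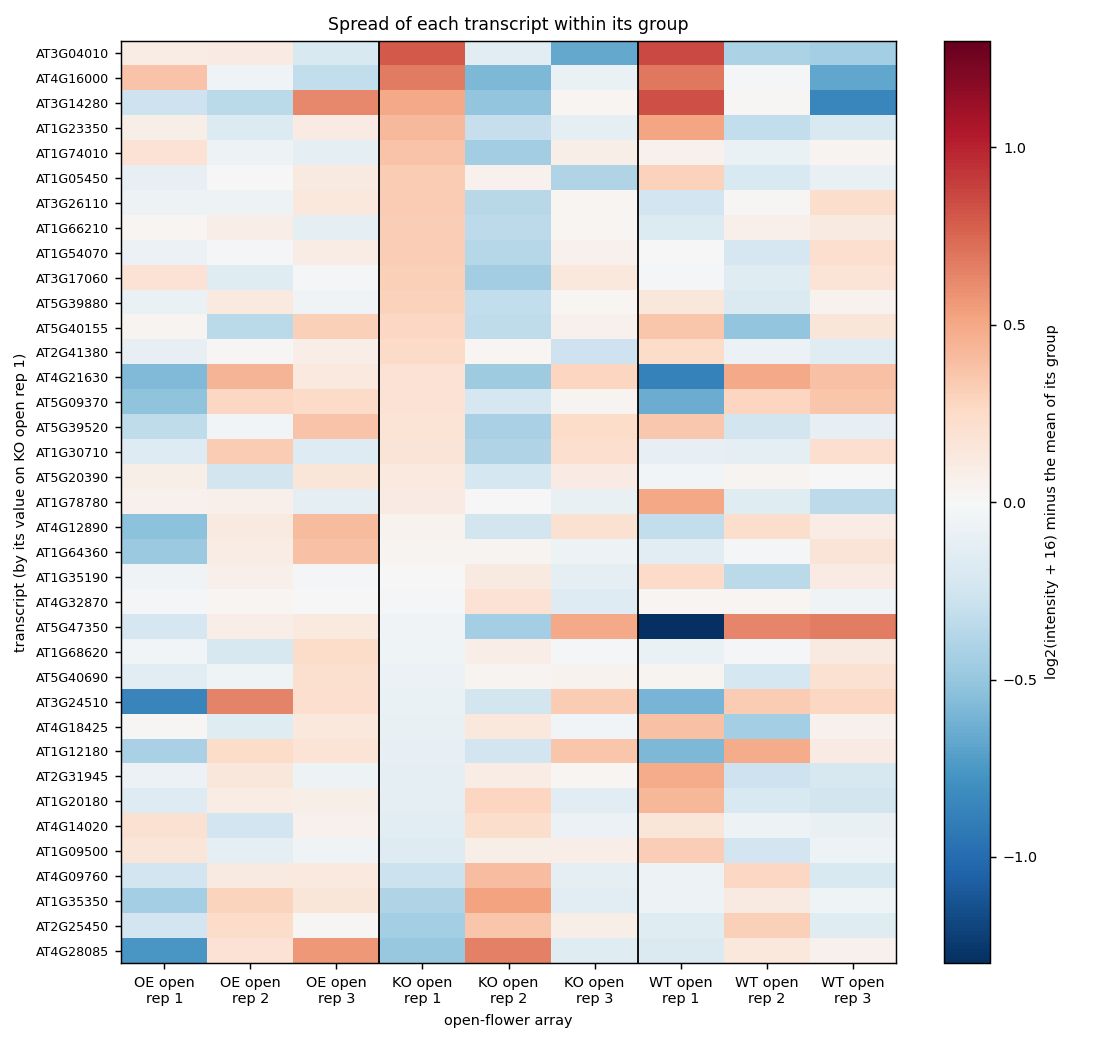
Deviation of log2(intensity + 16) from its group mean on each open-flower array, for the 37 transcripts ordered by KO replicate 1, with OE, KO and WT side by side. AT3G04010 is high on replicate 1 of KO and WT and AT4G16000 on replicate 1 of all 3 genotypes, while AT4G21630, AT5G09370, AT3G24510 and AT1G12180 are low on replicate 1 of OE and WT.

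The members did not all move together between open-flower replicates, and in buds most of them were highest on the same replicate number. On OE open-flower replicate 1, 22 members had their lowest value and 5 their highest. KO open-flower replicate 2 held the lowest value of 19 members and the highest of 12. Bud replicate 2 held the highest value of 20 members in OE, 20 in KO and 21 in WT. It held the lowest value of 3, 7 and 10 members. The median deviation of the members from the group mean there was 0.40 log2 units in OE, 0.26 in KO and 0.25 in WT. Such ranks were not counted over all probe sets. SWEET9, a marker of nectaries, was also highest on bud replicate 2. It had 252, 850 and 317 units in OE buds, 329, 837 and 489 in KO buds and 299, 940 and 342 in WT buds. Its part in the members' values was not tested. The summed level of 4 tapetum and pollen wall genes, A9, AMS, ATA27 and SHT, also differed by replicate. It was 332, 58.7 and 36.4 units in OE open flowers, 1323, 69.8 and 349 in KO open flowers and 308, 60.6 and 54.0 in WT open flowers, highest on replicate 1 in each genotype. In buds the same sum ran from 16749 to 25757 units over the 9 arrays. With arrays of replicates 2 and 3 only, all 37 members passed as higher in open flowers in OE and in KO.

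The wider biology of opening was read from genes with known roles, none of which is a member. A listed gene counts as measured where the annotation gives a probe set to that gene alone, and the others were not assessed. SWEET9, the sucrose exporter of nectaries, rose by 3.62 ± 0.44 in OE, to 5230 ± 417 units in open flowers against 473 ± 328 in buds, and by 2.78 ± 0.44 in KO, to 3749 ± 1085 against 552 ± 260. It was the 1 gene of 9 on the nectary list that was measured. Of 8 floral volatile genes listed, 4 were measured, and 3 of these rose in both genotypes. The median change of the 4 was 1.82 in OE and 1.59 in KO. CYP71B31, a P450 of floral linalool metabolism, rose by 5.42 ± 0.70 in OE and by 4.87 ± 0.70 in KO, and the terpene synthase genes TPS24 (2.70 in OE, 2.37 in KO) and TPS11 (0.93 and 0.81) rose too. BSMT1, which makes methyl benzoate and methyl salicylate, fell in both, by 2.32 and 1.85. THI2.1, a thionin gene induced by jasmonate, rose by 1.50 ± 0.11 in OE and by 1.24 ± 0.11 in KO. Of 23 genes listed for jasmonate synthesis and response, it was the 1 measured.

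Of 11 genes listed for senescence, 4 were measured and 3 tested. SAG101, the measured gene that was not tested, averaged 33.8 units in OE open flowers and 50.4 in OE buds. In KO it averaged 56.3 units in open flowers and 66.4 in buds. WRKY6 and the sugar transporter gene SWEET15 passed in both genotypes, with changes of 1.74 and 1.12 in OE and 1.86 and 1.15 in KO. WRKY53 did not pass in OE (0.30) and passed in KO (0.75), with a difference of -0.46 between these changes that did not pass (adjusted p = 0.686, limma). In open flowers it averaged 71.1 ± 13.5 units in OE and 221 ± 66.3 in KO, a difference of -1.42 ± 0.22 (adjusted p = 0.00244, limma). Of 21 genes listed for mature pollen and pollen tube, 7 were measured. Among these, 2 rose and 3 fell in OE, and 2 rose and 2 fell in KO. The medians were 0.30 in OE and 0.10 in KO. ANX2, a pollen tube receptor kinase gene, rose by 2.01 in OE and 2.51 in KO, while SWEET5 fell by 5.22 in OE and 4.29 in KO. All 4 measured genes, of 14 listed for tapetum and pollen wall, fell in both genotypes. Their changes were -7.74 to -5.14 in OE and -5.84 to -4.30 in KO, with medians of -6.59 in OE and -5.58 in KO. Of 6 genes listed for stigma and transmitting tract 2 were measured, and of these SPT passed, with -0.41 in OE and -0.46 in KO. Of 11 listed for petal and filament growth 2 were measured, and BPE passed in OE (0.59) and none in KO.

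**Figure D5:**
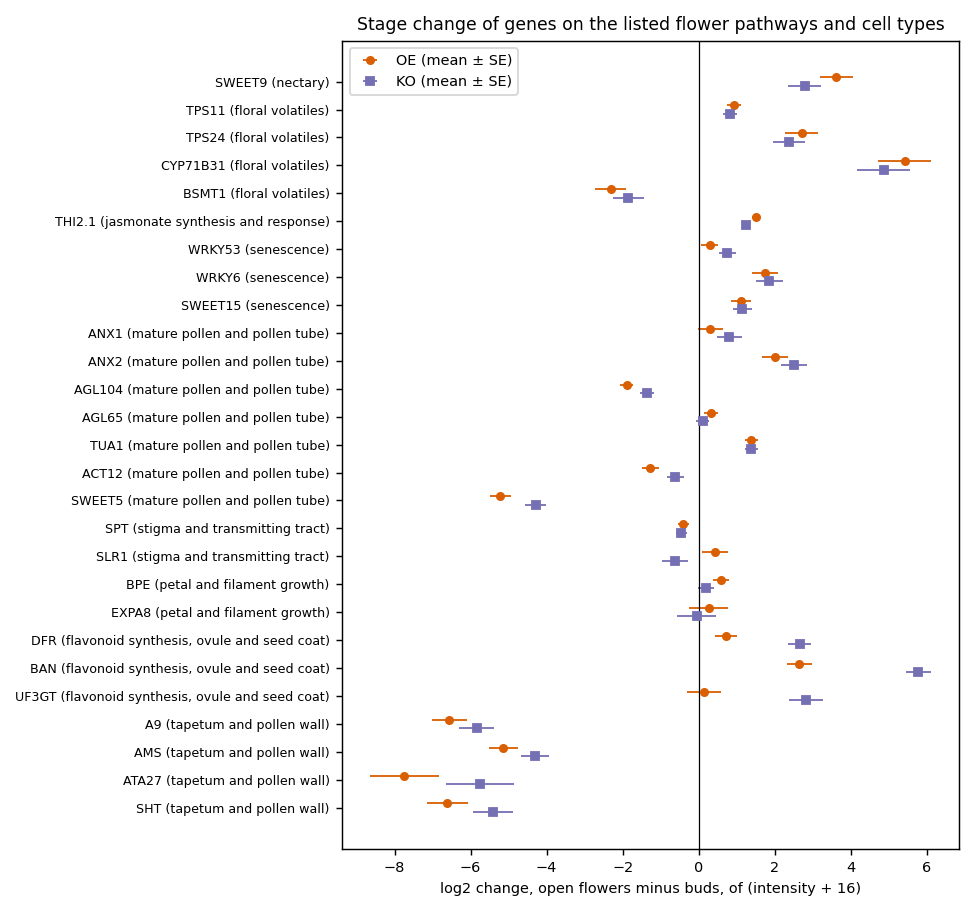
Log2 change, open flowers minus buds, of 27 tested genes of 9 flower lists in OE (circles) and KO (squares), with standard errors. SWEET9 and CYP71B31 are high in both genotypes, the 4 tapetum genes are low in both, and DFR, BAN and UF3GT lie lower in OE than in KO.

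Of 9 genes listed for flavonoid synthesis, ovule and seed coat, 3 were measured, and these separated OE from KO in open flowers. BAN, the anthocyanidin reductase gene of the seed coat, averaged 257 ± 46.6 units in OE open flowers and 1128 ± 377 in KO open flowers, a difference of -2.03 ± 0.33 (adjusted p = 0.00303, limma). DFR (-2.09) and UF3GT (-3.31) were lower in OE as well, so that all 3 measured genes passed, where 1.14% of all probe sets were lower. The list was chosen with earlier results of these data known, so this count is a description. Their median stage change was 0.72 in OE and 2.81 in KO. The summed level of these 3 lay between 326 and 426 units on OE open-flower arrays, between 1481 and 2437 on KO and between 1391 and 2494 on WT. AT5G47350 was low on the same OE arrays, at 77.7 to 103 units, and a relation between both was not tested.

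On the genome, 14, 3, 5, 8 and 7 members lay on chromosomes 1 to 5, where the array has 3103, 1968, 2443, 1724 and 2695 probe sets of that annotation. Protein-coding genes within 2 positions of a member were on the array for 33 members, with 44 probe sets tested. Of these, 7 were higher and 9 lower in OE open flowers than in OE buds, and 4 were higher and 5 lower in KO, beside shares of all probe sets of 14.3% higher and 16.9% lower in OE, and 11.1% higher and 9.8% lower in KO. These counts are near the shares of all probe sets. AT1G64370, next to AT1G64360, is given in full as 1 of the 4 neighbours higher in both genotypes, chosen after its values were seen. AT1G64360 had 1154, 1734 and 2118 units in OE open flowers, against 99.2, 237 and 178 in OE buds, and 1241, 1241 and 1155 in KO open flowers, against 173, 77.2 and 124 in KO buds. AT1G64370 averaged 4999 ± 682 in OE open flowers and 955 ± 99.8 in OE buds, a change of 2.36 ± 0.15 (adjusted p = 1.57e-09, limma), and 3259 ± 311 in KO open flowers and 820 ± 92.3 in KO buds, a change of 1.97 ± 0.15 (adjusted p = 1.78e-08). Of the other neighbours, AT4G12910, AT3G26100 and AT5G40670 passed as higher in both genotypes.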

How the data were processed

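Flowers of 3 genotypes at 2 stages were measured on ATH1 arrays, 1 colour, 18 arrays. The deposited table holds linear intensity values per probe set, which the authors had scaled to a common level, since the trimmed mean (2nd to 98th percentile) was nearly equal on all arrays. The software behind them is not given in the sources used here. Groups and replicate numbers come from titles. The description and growth fields read as wild type for every sample, against the titles of most arrays, and were not used for grouping.

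Left out were 64 control probe sets, 1 with an empty cell and 7635 not above the 40th percentile of an array on 3 or more of the 18. This left 15110, which entered limma 3.58.1 (R 4.3.3, statmod 1.5.0) as log2(intensity + 16), with 6 group means, 12 residual degrees of freedom, an intensity trend and Benjamini-Hochberg adjustment over all of them. The fit was tested on simulated data. Every adjusted p is from limma. Replicate numbers of the same genotype or stage pair the samples by their deviations, which correlated at 0.106 to 0.563, and no label states the pairing. The fit without the block is reported, and the shares of all probe sets given above come from it. They depend on this choice and on the scaling. With the block, 302 probe sets were higher and 525 lower in OE than in KO open flowers, against 57 and 173 without it. With each array centred on its median log2 and no block, 171 were higher and 116 lower there. For the OE stage change that centring gave 2643 higher and 1813 lower, against 2154 and 2550 in the reported fit.

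Members and gene lists were chosen with earlier results of these data known. The loci named are the 15 steepest and 5 shallowest by mean OE and KO change, those past an OE minus KO test, those nearest the limits and the 5 of highest WT open intensity, with others chosen after their values were seen. Names follow the platform's annotation, matched to TAIR10.1 loci. No coordinates or sequences are printed. Python 3.11.15 and matplotlib 3.10.9 drew the figures. Array number limits the precision. Alternatives tried were other pseudocounts, filters, scalings, variance priors, array subsets and the replicate block.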

Additional observations from a re-analysis of the deposited data

How the results depend on the processing

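The count of members higher in open flowers was 36 or 37 in OE, where AT5G47350 was lost in 7 of 23 alternatives, and 37 in KO under all of them. In buds, 0 members passed between OE and KO throughout. Of members higher in OE than in KO open flowers, 2 passed, 3 with a pseudocount of 64 or with the replicate block (AT1G78780 added by both), 4 with arrays of replicates 2 and 3 only, and 0 to 2 when 1 array was left out. Of members lower there, 1 passed, and 2 with a pseudocount of 64. The difference between the OE and KO stage changes was passed by 0 members, by 1 with a pseudocount of 64 (AT5G47350), by 1 with replicates 2 and 3 only (AT1G78780), and by 0 to 1 when 1 array was left out (AT5G47350 without OE bud replicate 3). With the replicate block this difference was passed by 1 (AT5G47350), and the block changed no other member's call in it. The difference of stage changes for AT1G12180, -0.50, was 0.046 with replicates 2 and 3 only and -0.97 to 0.23 when 1 array was left out, above 0 without KO bud replicate 1, and it passed in none of these. The causes were not tested. Low signal limits the bud values of the 17 members dim in all buds.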
